A study of Bos taurus with 12 samples.

Results

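The small RNA of longissimus muscle was compared between d 124 and d 0 of time-on-concentrates in the same 4 steers. The contrast is between 8 of the 12 libraries of the series, 4 per time, chosen by the day that ends each library's code, with the steer known from the code of the animal. The reported test took the spread from all 12 libraries, those of d 92 included, and had no term for the steer. The steers were yearling Angus-cross animals by 1 sire, fed individually and moved through step-up rations to a high concentrate ration based on rolled corn. At d 0 they had not yet received the ration, and at d 124 they were at the end of the finishing period. No steers kept off concentrates were sampled, so time on feed and age cannot be told apart. Both biopsies were needle samples of the left side, taken at the eleventh rib at d 0 and at the twelfth rib at d 124, and these sites cannot be told apart from the times either. The steers that were sequenced were those closest to the mean intramuscular fat content of the animals on feed. Steers 1 to 4 have the replicate numbers of the labels. The p-values of the reported test measure the spread between libraries of the same time, with 1 biopsy of each steer at each time. They do not use the pairing of the times by steer. Fits that have the steer as a term are named as such.

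MicroRNAs (miRNAs) are short RNAs that guide silencing proteins to matching messenger RNAs and lower their translation or stability. In skeletal muscle a small set of muscle-specific miRNAs is very abundant, and some of these lie inside the myosin genes whose fibre types they mark. A muscle biopsy also carries RNA of blood, vessels, connective tissue and the fat cells that lie between the fibres, which make up marbling. In such bulk samples, fewer cells of a type and less RNA per cell cannot be told apart.

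The sequenced features fall into 2 classes. There are 640 features from miRBase, the registry of miRNA genes, and 2072 small RNA features with Ensembl gene identifiers, for which the sources used here give no names. Of all 2712 features, 1314 vary between libraries, 431 of miRBase and 883 of Ensembl, and these are the members of the comparison. A further 1398 have the same value in every library. Values are normalized levels on a log scale whose floor is 0. A base of 2 was assumed, which the sources used do not state, and every fold change and the 1.3-fold limit below rest on that base. A level was recovered for 1299 of the features that vary. Levels are used to compare 1 feature between libraries. They were not divided by length.

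The number of features above the floor overlapped between the times. Of miRBase, between 334 and 352 were above it at d 0 (median 348) and between 331 and 347 at d 124 (median 343). Of Ensembl, the range was 570 to 650 at d 0 (median 576) and 571 to 619 at d 124 (median 594). No feature of either class was above the floor in all 4 libraries of one time and at the floor in all 4 of the other. In all 8 libraries, 290 miRBase features and most of the Ensembl features detected in each library were above the floor. There were 3 miRBase features and 1 Ensembl feature at the floor in every d 0 library and above it in 3 or more d 124 libraries, and 2 of each class with the reverse pattern. The comparison is therefore mostly one of levels among RNAs detected at both times.

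For the test, 1002 features above the floor in at least 4 of the 12 libraries were fitted, 368 of miRBase and 634 of Ensembl. The other 312 members, 63 of miRBase and 249 of Ensembl, were too often at the floor. In limma with Benjamini-Hochberg adjustment over all 1002, 0 features (0%) passed an adjusted p of 0.05, with 0.343 as the smallest value. Without adjustment 81 had p under 0.05. Fitted to the 8 libraries alone, 60 had p under 0.05, and no adjusted p was below 0.610. Exact permutation tests of single features have 70 regroupings of the 8 libraries, without regard to the steer, and their smallest possible p of 0.0286 is too large for an adjusted p over so many features to be informative, so only their unadjusted p is given. The limits that the study used, an unadjusted p under 0.05 with a change of 1.3-fold or more, were met by the same number, 81 of 1002 (8.08%). These limits are called the nominal limits below. A feature that meets them is described as higher or lower at d 124, and since 0 features pass the adjusted p, no single feature is called changed.

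The classes leaned in opposite directions. These leans are not independent, since quantile normalization gives all libraries the same set of values. Of 368 miRBase features, 34 met the nominal limits (9.24%), 6 of them higher at d 124 (1.63%) and 28 lower (7.61%). Of 634 Ensembl features, 47 met them (7.41%), 37 higher (5.84%) and 10 lower (1.58%). The median log2 fold change was -0.066 over the miRBase features, with quartiles of -0.42 and 0.17, and 0.068 over the Ensembl features, with quartiles of -0.24 and 0.40. A difference in the same direction in 4 of 4 steers was seen for 6 miRBase features higher (1.63%) and 38 lower (10.3%), and for 56 Ensembl features higher (8.83%) and 23 lower (3.63%). Groups that did not overlap were found for 35 of 1002 features (3.49%). Of these, 10 were miRBase features, all lower (2.72%), 16 were Ensembl features that were higher (2.52%) and 9 were Ensembl features that were lower (1.42%). At 2-fold or more without regard to p, 7 miRBase features were higher (1.9%) and 16 lower (4.35%), against 27 higher (4.26%) and 9 lower (1.42%) of Ensembl.

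**Figure D1:**
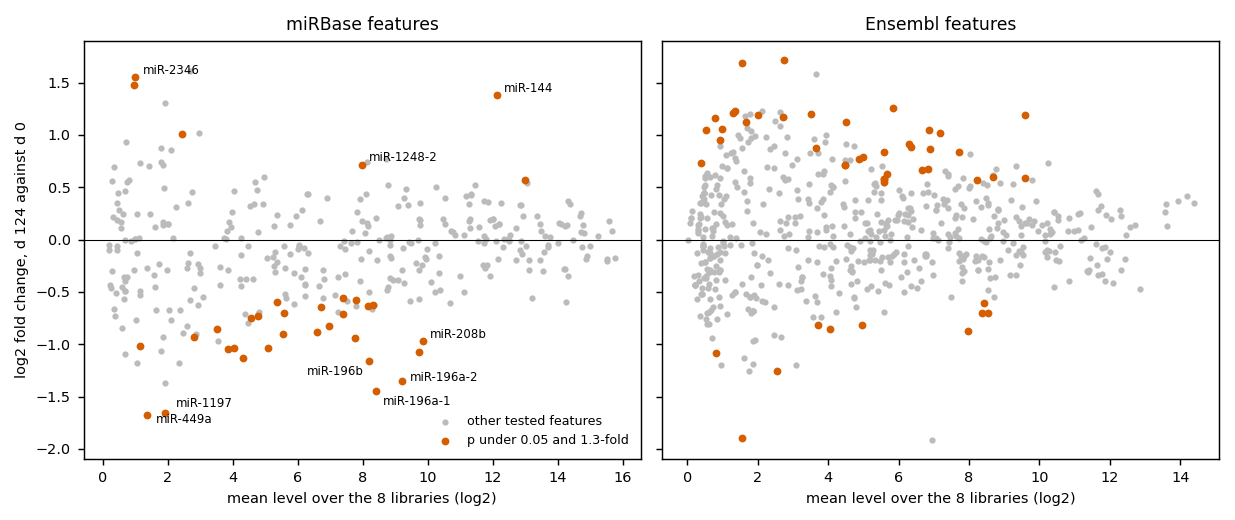
The log2 fold change of d 124 against d 0 (vertical axis) is plotted against the mean normalized level over the 8 libraries (log2, horizontal axis) for tested features with a recovered level, miRBase and Ensembl features in separate panels, with 1 point per feature. Orange points met the nominal limits: most of those of miRBase lie below 0 (28 of 34 features in all) and most of those of Ensembl above 0 (37 of 47).

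The balance of the classes also differed between single libraries. Over 284 miRBase features above the floor in all 12 libraries, the median deviation from the feature's own median at d 0 was 0.25, -0.20, -0.11 and 0.49 (log2) in steers 1 to 4, and at d 124 it was -0.25, -0.038, 0.053 and 0.090. Over 425 Ensembl features chosen likewise, it was -0.20, 0.098, 0.075 and -0.35 at d 0 and 0.15, 0.031, -0.078 and -0.043 at d 124. The d 0 libraries of steers 1 and 4 were thus high in miRBase features and low in Ensembl features, the d 0 libraries of steers 2 and 3 the reverse, and the d 124 library of steer 1 was low in miRBase features. The share of summed normalized values that miRBase features took is another view of the same balance. It was 81.0%, 73.6%, 76.2% and 86.0% at d 0 and 73.6%, 78.0%, 81.4% and 80.9% at d 124. The groups overlap in this share, with the highest value of the 8 in steer 4 at d 0 and the lowest in steer 1 at d 124.

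**Figure D2:**
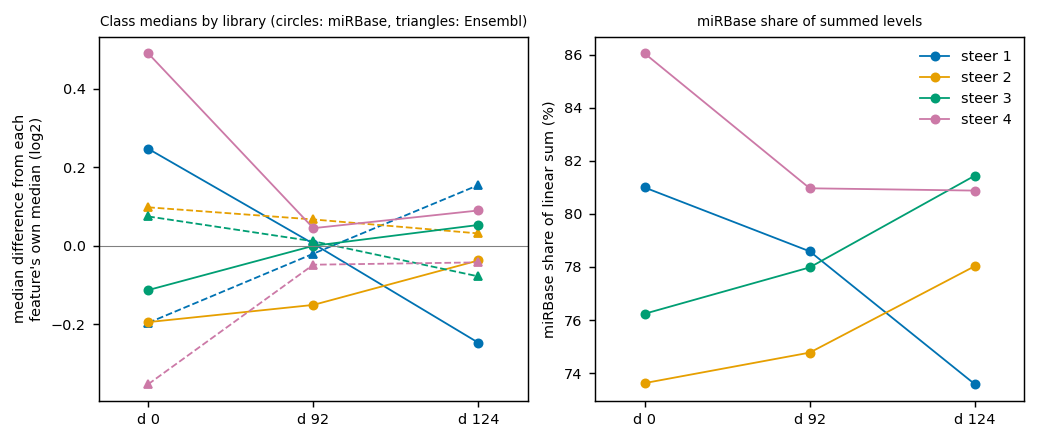
The left panel plots, for each library, the median deviation (log2) of miRBase and of Ensembl features from each feature's own median, and the right panel the share (%) of the summed normalized values that miRBase features took. The classes mirror each other, which is no separate observation, since quantile normalization gives all libraries the same set of values. The d 0 library of steer 4 stands highest for miRBase at 0.49 and 86.0%.

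Of the fits that left out 1 library, that without d 0 replicate 4 lost most of the lean, with 8 higher and 13 lower of miRBase and 24 higher and 22 lower of Ensembl, and medians of 0.027 and -0.019. In the other 7 such fits the lean of the counts was kept, though the medians came nearer to 0 in some. Without d 0 replicate 1, the other d 0 library high in miRBase features, 6 were higher and 25 lower of miRBase and 39 higher and 18 lower of Ensembl. The medians of that fit were -0.028 and 0.031. Without d 124 replicate 1 the counts were 5 and 16 of miRBase and 45 and 13 of Ensembl, with medians of only -0.014 and 0.0087. Fitted to the 8 libraries alone the counts were 4 and 22 of miRBase and 27 and 7 of Ensembl. Centring each class to its own median in every library, an alternative chosen after the data had been seen, takes away a shift of a whole class by construction. It left 14 higher and 22 lower of miRBase and 25 higher and 20 lower of Ensembl. The part of the class balance in any 1 feature's difference was not tested.

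**Figure D3:**
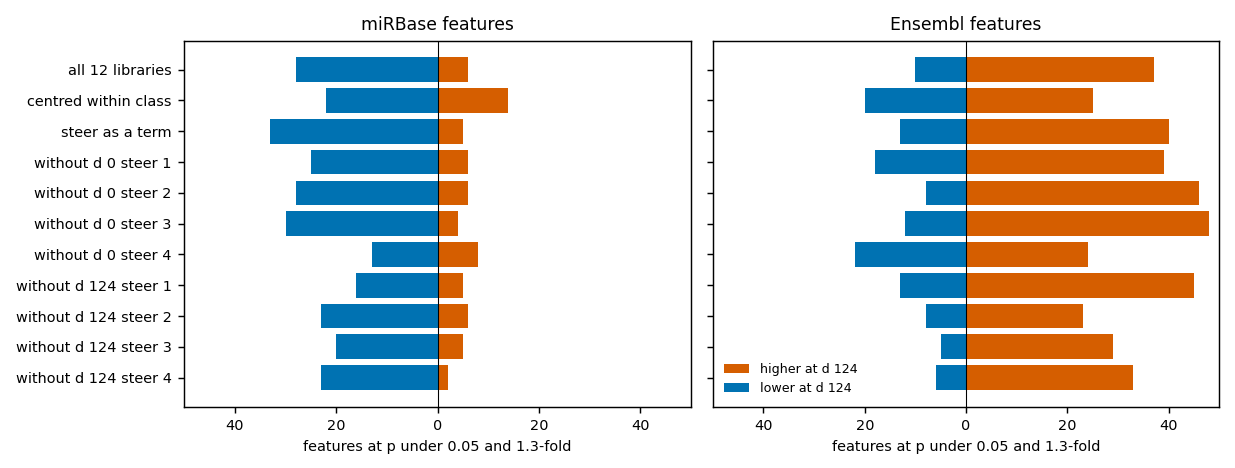
Bars count the miRBase and the Ensembl features that met the nominal limits, higher or lower at d 124 than at d 0, in the fit as reported and under alternatives. The miRBase features were 28 lower against 6 higher as reported, 22 against 14 with centring within each class, which takes away class-wide shifts by construction, and 13 against 8 without the d 0 library of steer 4.

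The identifiers of 18 miRNAs are paired with names, through the study's lists of miRNAs that differed at d 92 or d 124. Since those lists were chosen on these same libraries, the direction of their members is not independent evidence. Of the 18, 9 met the nominal limits, 3 higher at d 124 (bta-miR-144, bta-miR-2346 and bta-miR-1248-2) and 6 lower (bta-miR-449a, bta-miR-1197, bta-miR-196b, bta-miR-196a-1, bta-miR-196a-2 and bta-miR-208b). Over all miRBase features tested, the shares were 1.63% higher and 7.61% lower. Of the 8 miRNAs that the study lists as higher at d 124, 3 met the limits, and of the 7 listed as lower, 5 did. The study lists bta-miR-1197 at d 92 only. All 9 that met the limits in the reported fit also met them with each class centred. Fitted to the 8 libraries alone, 8 of them did, all but bta-miR-1248-2. With each of the 8 libraries left out in turn, bta-miR-449a and bta-miR-2346 met them in 8 of 8 fits, bta-miR-196b in 7 and bta-miR-208b in 6. The other members met them less often, bta-miR-1197 and bta-miR-196a-1 in 4 fits and bta-miR-144, bta-miR-1248-2 and bta-miR-196a-2 in 3. Without d 0 replicate 4 only bta-miR-449a, bta-miR-2346 and bta-miR-144 did. The feature bta-miR-2346 was at the floor in 3 of 4 d 0 libraries and in 2 of 4 d 92 libraries. It passed the filter of 4 libraries above the floor only through d 124, where it is high, so its 8 fits are a description. With a filter of 8 libraries above the floor it was not tested. Genes beside or around a miRNA are given below, by name, from a RefSeq annotation of ARS-UCD2.0, a later build than bosTau4, to which the reads were aligned. The median log2 fold change was -0.19 over the 18 named miRNAs, beside -0.066 over all miRBase features tested.

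Among miRNAs of muscle fibres, 1 of 9 listed members could be named. This is bta-miR-208b (MI0009774), which lies inside MYH7, the gene of the slow and cardiac beta myosin heavy chain, and is made together with it. Its level at d 0 was 10.40, 9.59, 10.26 and 11.06 in steers 1 to 4. At d 124 it was 9.28, 9.11, 9.56 and 9.47. All d 124 libraries lay below all d 0 libraries, though the highest at d 124 and the lowest at d 0 were only just apart, and the spread at d 124 was small. The mean was 10.33 ± 0.60 at d 0 and 9.36 ± 0.20 at d 124 (SD, n = 4 each). The difference of the means was -0.97 on the log2 scale (SE 0.38, limma adjusted p = 0.544), which is 1.96-fold lower, and the exact permutation p of 0.0286 is the smallest that 4 against 4 libraries allow. Without d 0 replicate 4 it was -0.73 and without d 124 replicate 2 it was -0.89, both outside the nominal limits. It was above the floor in all 8 libraries, and it is the 1 muscle miRNA on which the labelled tissue could be checked here.

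The HOX clusters hold the genes of body axis patterning, which carry the positional identity of a tissue, with miRNAs between them. Of 5 listed HOX miRNAs 2 could be named, as 3 features, through the study's lists from these same libraries. All 3 features were lower at d 124 by the nominal limits, beside 7.61% of all miRBase features tested, and none passed an adjusted p of 0.05. The feature bta-miR-196b (MI0009768), between HOXA10 and HOXA9, had a level of 8.69, 8.39, 8.60 and 9.31 in steers 1 to 4 at d 0 and of 7.27, 7.54, 8.67 and 6.88 at d 124. Steer 3 was level between the times while the other steers were lower at d 124, and the groups overlap through steer 3 alone. The contrast gave -1.16 on the log2 scale (SE 0.40, limma adjusted p = 0.544, exact permutation p = 0.0857).

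The features bta-miR-196a-1 and bta-miR-196a-2 are copies of 1 miRNA in the HOXB and HOXC clusters, and reads of a shared mature miRNA cannot be assigned to either copy with certainty. The level of bta-miR-196a-1 (MI0009767), which overlaps HOXB9 and lies beside HOXB8, was 8.80, 8.72, 8.95 and 9.94 at d 0 and 6.67, 7.77, 8.92 and 7.30 at d 124. For bta-miR-196a-2 (MI0009766), between HOXC9 and HOXC10, it was 9.71, 9.55, 9.74 and 10.55 at d 0 and 7.39, 8.65, 9.87 and 8.24 at d 124. Both copies show the pattern of bta-miR-196b by steer. The differences of d 124 minus d 0 for bta-miR-196b, bta-miR-196a-1 and bta-miR-196a-2 were -1.42, -2.14 and -2.32 in steer 1, -0.85, -0.95 and -0.90 in steer 2, 0.072, -0.035 and 0.13 in steer 3, and -2.43, -2.64 and -2.31 in steer 4. The 3 features were thus lower in steers 1, 2 and 4 and level in steer 3, and the steers with the larger differences, 1 and 4, were those whose d 0 libraries were high in miRBase features. The contrast gave a log2 fold change of -1.44 for bta-miR-196a-1 (SE 0.62, limma adjusted p = 0.544, exact permutation p = 0.0857) and -1.35 for bta-miR-196a-2 (SE 0.58, limma adjusted p = 0.544, exact permutation p = 0.114). Without d 0 replicate 4 the 3 features did not meet the nominal limits, bta-miR-196a-1 and bta-miR-196a-2 also not without d 0 replicate 3, d 124 replicate 1 or d 124 replicate 4, and bta-miR-196a-2 also not without d 0 replicate 1. The log2 fold change nearest to 0 over all fits that left out 1 library was -0.92, -1.11 and -0.97 in the same order. For these features too, time and rib cannot be told apart.

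Of the miRNAs of blood cells, 2 of 5 listed members could be named. The level of bta-miR-144 (MI0009744), which is made in maturing red cells from 1 transcript with its neighbour MIR451, was 12.28, 9.95, 11.01 and 12.50 at d 0 and 13.14, 11.68, 13.40 and 13.04 at d 124. It was higher at d 124 in 4 of 4 steers, but by 0.55 in steer 4 and by 2.39 in steer 3, and the groups overlap because steer 2 was low at both times. The fitted difference was 1.38 on the log2 scale (SE 0.60, limma adjusted p = 0.544, exact permutation p = 0.114), which is 2.60-fold, and its unadjusted p was 0.052 with the steer as a term in limma. Without d 0 replicate 2 it was 0.89. For bta-miR-142 (MI0005011), the miRNA of white and other blood cells of the marrow lineages, the level was 11.15, 9.85, 11.09 and 12.66 at d 0 and 11.96, 11.17, 12.24 and 11.48 at d 124. It was higher in steers 1, 2 and 3 and lower in steer 4, whose d 0 library held the highest level of the 8. The fitted difference was 0.52 on the log2 scale, with a 95% interval of -0.67 to 1.72 (limma adjusted p = 0.853), and it lay between 0.081 without d 0 replicate 2 and 1.02 without d 0 replicate 4. In steer 2 both blood miRNAs were at their lowest of the d 0 libraries. The amount of blood in a biopsy was not measured, and its part in these differences was not tested.

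The imprinted DLK1-DIO3 cluster, whose miRNAs are expressed from the maternal chromosome, is active in growing muscle. Of its 42 listed miRNAs, 3 have a name here, and 1 met the nominal limits. The level of bta-miR-1197 (MI0010470) was 2.77, 3.11, 1.80 and 3.28 at d 0 and 0.031, 2.06, 0 and 2.26 at d 124. It was lower in 4 of 4 steers, with steer 3 at the floor and steer 1 just above it at d 124, while the groups overlap through steer 3 at d 0. From d 0 to d 124 the fitted difference was -1.65 on the log2 scale (SE 0.65, limma adjusted p = 0.544, exact permutation p = 0.0857). On the scale of log2(value + 10) the difference of bta-miR-1197 was -0.43, inside the nominal limits. In a fit to the 8 libraries with the steer as a term, chosen after the data had been seen, its adjusted p was 0.0533 in limma, the smallest of that fit. Its neighbour bta-miR-323 (MI0009797) had a level of 4.75, 4.15, 4.60 and 5.41 at d 0 and of 3.44, 3.89, 4.89 and 3.82 at d 124. It was lower in steers 1, 2 and 4 and higher in steer 3, with a log2 fold change of -0.72 and a 95% interval of -1.53 to 0.10 (limma adjusted p = 0.644). For bta-miR-485 (MI0009842), farther along the cluster, the level was 3.06, 2.65, 3.42 and 3.28 at d 0 and 2.13, 3.44, 2.48 and 3.28 at d 124. These values cross between the times, and the log2 fold change of -0.27 has an interval of -1.66 to 1.11 (limma adjusted p = 0.927).

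Of the miR-34 and miR-449 family, known for its role in cells that leave the cell cycle and in cells with many cilia, 1 of 7 listed members could be named. The feature bta-miR-449a (MI0009834), inside CDC20B beside MIR449B and MIR449C, had a level of 1.92, 1.74, 1.80 and 3.28 at d 0 and of 0.031, 0, 1.39 and 0.61 at d 124. All d 124 libraries lay below all d 0 libraries, steer 2 was at the floor at d 124, and the d 0 library of steer 4 stood above the rest. On the log2 scale d 124 differed from d 0 by -1.68 (SE 0.46, limma adjusted p = 0.343, exact permutation p = 0.0286), the lowest among miRBase features tested. It lies near the floor, and on the scale of log2(value + 10) it was -0.37, with an unadjusted p of 0.00739 in limma but under 1.3-fold and so outside the nominal limits.

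Of the miR-362 cluster, 1 of 7 listed members could be named. The level of bta-miR-362 (MI0009811), inside CLCN5 beside MIR500, MIR660 and MIR502B, was 10.65, 10.93, 10.77 and 11.62 at d 0 and 10.20, 10.32, 10.38 and 10.65 at d 124. It was lower in 4 of 4 steers, and the groups meet only where steer 4 at d 124 was at about the level of steer 1 at d 0. The log2 fold change was -0.60, with a 95% interval of -1.29 to 0.087 (limma adjusted p = 0.644, exact permutation p = 0.0571), and it was -0.39 without d 0 replicate 4. With the steer as a term its unadjusted p was 0.045 in limma, inside the nominal limits.

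Of miRNAs of the liver, 1 of 3 listed members could be named, bta-miR-122 (MI0005063), the dominant miRNA of liver cells and a regulator of cholesterol and fatty acid metabolism there. Its level at d 0 was 10.23, 8.01, 8.14 and 9.89 and at d 124 it was 8.25, 9.47, 10.18 and 10.29. Steers 2, 3 and 4 were higher at d 124 and steer 1 was lower by about as much as steers 2 and 3 were higher. The contrast gave 0.48 on the log2 scale with an interval of -1.22 to 2.18 (SE 0.80, limma adjusted p = 0.902). With single libraries left out it lay between 0.13, without d 0 replicate 2, and 0.91, without d 124 replicate 1. The nominal limits were not met in the reported fit or in any of these. The paper lists bta-miR-122 as up-regulated at d 124, by more than was found here, and reports the same direction by qPCR. The qPCR was not part of these data, and the reason for the difference was not tested.

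The other miRNAs listed as higher at d 124 include 1 beside SGCZ, a gene of the sarcoglycan family of muscle membrane proteins, and 1 inside a gene of glucose transport. The level of bta-miR-383 (MI0009823) was 0, 3.11, 1.34 and 2.98 at d 0 and 2.70, 3.71, 3.83 and 3.63 at d 124, so it was higher in 4 of 4 steers. The difference of the means was 1.61 on the log2 scale (SE 0.88, limma adjusted p = 0.657), and 0.99 without d 0 replicate 1, which was at the floor. It did not meet the nominal limits in the reported fit, and with single libraries left out it met them in 1 of 8 fits. It met them on the 8 libraries alone and on the scale of log2(value + 10), where the log2 fold change was 0.54. For bta-miR-2346 (MI0011374), inside ASPSCR1, whose product holds the glucose transporter of muscle and fat cells inside the cell, the level was 0, 0, 0 and 0.89 at d 0 and 1.47, 1.85, 3.16 and 0.61 at d 124. It was at the floor in steers 1, 2 and 3 at d 0 and above it in all steers at d 124, while steer 4 was lower at d 124. The log2 fold change of 1.55 (SE 0.45, limma adjusted p = 0.432, exact permutation p = 0.0571) was 0.32 on the scale of log2(value + 10), with an unadjusted p of 0.0147 in limma but under 1.3-fold and so outside the nominal limits.

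The features bta-miR-1248-1 (MI0010477), inside EIF4A2, and bta-miR-1248-2 (MI0010483), inside MYO5A, carry the same miRNA name at different places of the genome. For bta-miR-1248-2 the level was 8.22, 7.57, 7.52 and 7.08 at d 0 and 7.84, 8.30, 8.38 and 8.72 at d 124. It was higher in steers 2, 3 and 4 and lower in steer 1, with a fitted log2 difference of 0.71 (SE 0.31, limma adjusted p = 0.544, exact permutation p = 0.0571). Fitted to the 8 libraries alone, with or without the steer as a term, bta-miR-1248-2 did not meet the nominal limits. For bta-miR-1248-1 the level was 6.53, 5.73, 5.54 and 5.52 at d 0 and 6.30, 5.98, 6.27 and 5.68 at d 124. The steers moved the same way in both features, but the log2 fold change of bta-miR-1248-1 was 0.23 with an interval of -0.44 to 0.90 (limma adjusted p = 0.898). Whether the features differ from each other was not tested, and how reads that match both were counted is not given in the sources used.

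For the remaining named miRNAs the difference was smaller than the spread between steers. The level of bta-miR-505 (MI0009856) was 8.04 ± 0.59 at d 0 and 8.20 ± 0.55 at d 124 (SD, n = 4 each), and the log2 fold change was 0.16 with an interval of -0.58 to 0.89. For bta-miR-2411 (MI0011456), inside UBAP2L, the level was 5.34 ± 0.41 at d 0 and 5.23 ± 0.44 at d 124 (SD, n = 4 each), and the log2 fold change was -0.11 with an interval of -0.78 to 0.55. Both changed sign when single libraries were left out. None of the 22 listed miRNAs of fat cell differentiation and none of the 8 of vessels and connective tissue is paired with a name here, so their levels are not given. The list of fat cell differentiation leaves out miR-196a, which the paper cites as stimulating the differentiation of preadipocytes when overexpressed in vitro. The planned markers of fat cells and their precursors did include miR-196a. In the reported fit its features were lower at d 124 by the nominal limits, as described above with the HOX clusters.

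**Figure D4:**
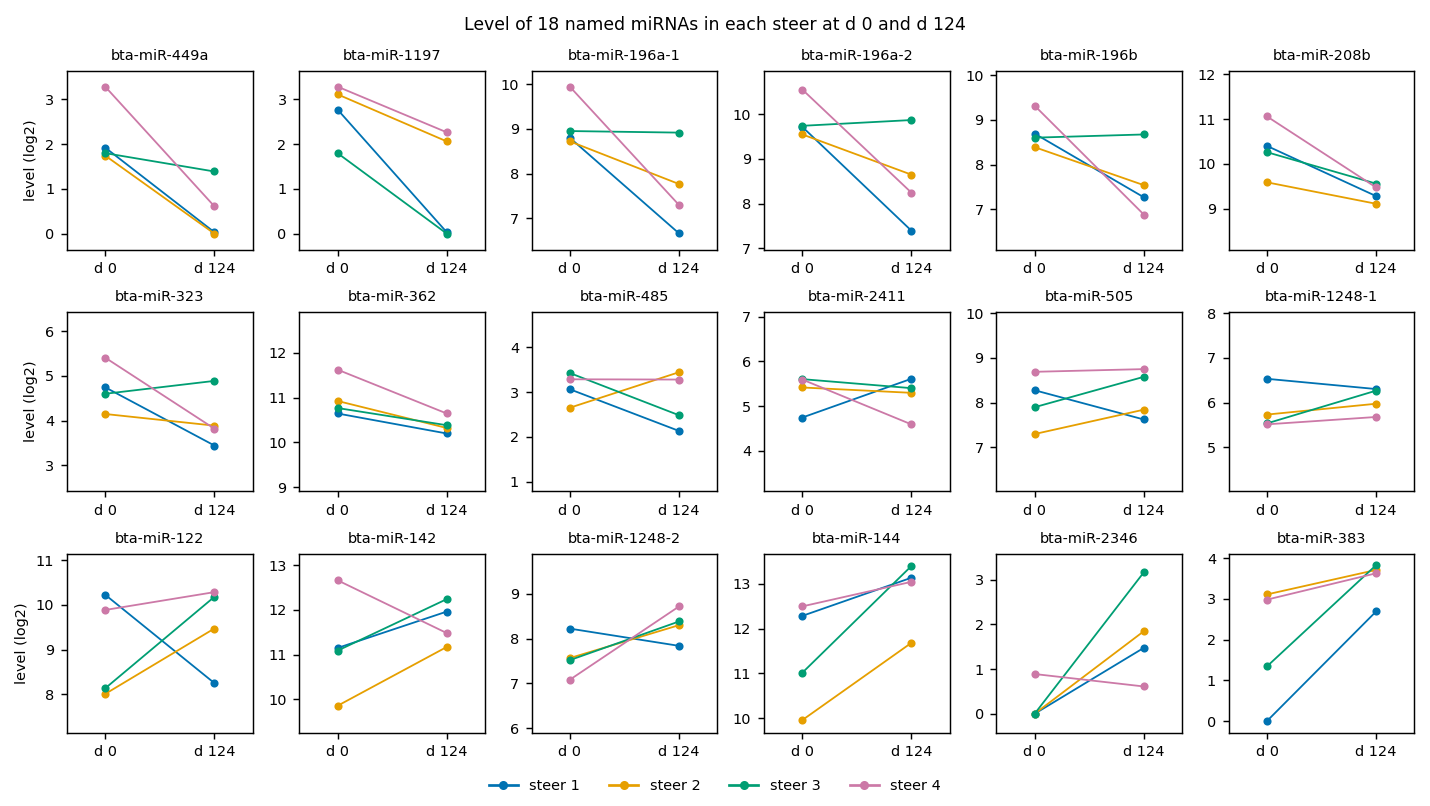
Each panel shows the normalized level (log2) of 1 named miRNA at d 0 and d 124, with a line for each of the 4 steers, on axes that span about the same range of log2 units. The lines of bta-miR-208b and bta-miR-362 all run down and those of bta-miR-144 and bta-miR-383 all run up, while 1 line of each bta-miR-196 panel, that of steer 3, stays nearly flat.

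Beyond the named miRNAs, the features of smallest p among those of 1 direction in 4 of 4 steers were chosen by that p, so their values are a description. The 12 such miRBase features were all lower at d 124, with log2 fold changes between -1.68 and -0.75, and 8 of them had groups that did not overlap. Over all miRBase features tested, 10 of 368 had such groups (2.72%), all lower, and the choice by p favours them. Only bta-miR-449a and bta-miR-208b among the 12 have names. Of the 12, 9 met the nominal limits with each class centred, 9 did without d 0 replicate 4, and 5 did under each of the 19 alternatives that gave them a value. The feature MI0010457 had the smallest p of the class. Its level was 6.84, 6.97, 6.82 and 7.41 at d 0 and 5.99, 6.19, 6.17 and 6.16 at d 124. The d 124 libraries lay close together, well below the d 0 libraries. The contrast gave -0.88 on the log2 scale (SE 0.22, limma adjusted p = 0.343, exact permutation p = 0.0286), it was -0.74 with each class centred, and it met the nominal limits under all 19 alternatives.

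Of the 8 Ensembl features chosen likewise, 7 were higher and 1 was lower at d 124, and 7 had groups that did not overlap. Over all 634 Ensembl features tested, 2.52% had such groups and were higher, and 1.42% had them and were lower. With each class centred, and with d 0 replicate 4 left out, all 8 met the nominal limits, and 6 under each of the 19 alternatives that gave them a value. The level of ENSBTAG00000042871 was 5.03, 5.76, 5.25 and 4.80 at d 0 and 6.45, 6.48, 6.42 and 6.54 at d 124. All d 124 libraries lay above the d 0 libraries and within a narrow range. The fitted difference was 1.26 on the log2 scale (SE 0.30, limma adjusted p = 0.343, exact permutation p = 0.0286).

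A further Ensembl feature, ENSBTAG00000033622, had a level of 2.44, 2.90, 3.28 and 2.98 at d 0 and of 3.93, 4.38, 4.46 and 3.63 at d 124, again without overlap. From d 0 to d 124 the fitted difference was 1.20 on the log2 scale (SE 0.32, limma adjusted p = 0.343). The 1 lower feature, ENSBTAG00000044968, had a level of 3.37, 1.74, 3.10 and 1.81 at d 0 and of 0.77, 1.06, 0 and 0.61 at d 124, with steer 3 at the floor. On the log2 scale d 124 differed from d 0 by -1.90 (SE 0.44, limma adjusted p = 0.343), the smallest unadjusted p of all features tested. The type of RNA behind these Ensembl identifiers, such as a small nucleolar RNA or a transfer RNA fragment, is not given in the sources used.

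The d 92 libraries of the same steers give a view of the time between. However, d 92 and d 124 are set against the same d 0 libraries. The d 92 biopsies were taken on the right side, at the same rib as those of d 0. For bta-miR-144 the level was 12.98 ± 1.07 at d 92, beside 12.82 ± 0.77 at d 124 and 11.44 ± 1.19 at d 0 (SD, n = 4 each). For bta-miR-449a it was 0.68 ± 0.86 at d 92, beside 0.51 ± 0.65 at d 124 and 2.19 ± 0.74 at d 0 (SD, n = 4 each). For these miRNAs the means of d 92 and d 124 lay close together. The level of bta-miR-208b at d 92 was 9.90 ± 0.83 (SD, n = 4) and that of bta-miR-196b 8.03 ± 0.57 (SD, n = 4), between the means of d 0 and d 124 in both cases. The level of bta-miR-1248-2 at d 92 was 7.52 ± 0.24 (SD, n = 4), near that of d 0 at 7.60 ± 0.47 (SD, n = 4), and at d 124 it was 8.31 ± 0.36 (SD, n = 4).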

How the data were processed

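Small RNA of 12 longissimus muscle biopsies, 4 steers at 3 times, was sequenced by the authors on the Ion Torrent platform from total RNA, aligned to bosTau4 and normalized with the Quantile algorithm of StrandNGS. The study's results name TPM in place of quantiles, while the deposited table has the same set of levels in many libraries, which quantiles produce. The authors deposited log values, taken here as log2, 1 per feature and library. Normalized values under 1 were set to 1 and each feature's median over the 12 libraries was subtracted. No counts were used here, so depth per library is unknown and no counting interval is given. Quantile normalization gives all libraries the same set of values, so a rise of many features of one class lowers others.

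The subtracted medians were recovered by matching levels shared between libraries (tolerance 3e-06). These serve for levels and the filter, not for differences. Where no level was recovered, a feature's own minimum was taken as its floor. The contrast was fitted by limma 3.58.1 (R 4.3.3, trend and robust) to the 12 libraries, with time alone in the model, as the study's analysis of variance had no term for the steer. Benjamini-Hochberg adjustment was over 1002 features of both classes. Of these, 28 repeat the values of another feature, and no repeat joins the classes. Exact permutation tests were two-sided over 70 regroupings, and 95% intervals are those of limma. Levels and plots used Python 3.11.15, numpy 2.4.6, pandas 2.3.3, scipy 1.17.1 and matplotlib 3.10.9. The fit and the recovery of medians were tested on simulated data.

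The replicate number stands for an animal and so pairs d 0 with d 124. Deviations from the time means correlated between -0.21 and 0.35 for libraries of 1 steer (median -0.0089, 4 pairs, 709 features), and with a median of 0.017 for 12 pairs of different steers.

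The members, lists and tests were chosen with earlier results of these data known. Named features are the 18 miRNAs that the study lists with miRBase identifiers, and the 12 miRBase and 8 Ensembl features of smallest p among those of 1 direction in all steers. The reference annotation (ARS-UCD2.0) matched no feature identifier and gave neighbouring genes only, by name.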

Additional observations from a re-analysis of the deposited data

Results flagged for a closer look

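At d 0 the level of bta-miR-449a in steer 4 was 3.284 (log2), apart from the range of 1.74 to 1.92 in steers 1, 2 and 3. This gap is 0.884 of the group's range, more than Dixon's 95% limit allows. Steer 4 was also alone above the floor at d 0 for bta-miR-2346, with a level of 0.888, and since the other d 0 libraries are tied there, any value above the floor would give the largest gap. These are 2 of 42 groups of 4 levels tested, about as many as chance gives at that limit. Without d 0 replicate 4 the log2 fold change at d 124 against d 0 was -1.31 for bta-miR-449a and 1.77 for bta-miR-2346. The same library had the highest share of miRBase features. Its deviations from the features' means at the library's own time were the widest (SD 0.68, against 0.35 to 0.58 in the other libraries). The part of this library in both fold changes was not tested.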

How the results depend on the processing

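Of 437 values from alternatives, 420 kept their direction or count, 13 counts moved by over 1.5 times and 4 fold changes reversed. Features at an adjusted p under 0.05 numbered between 0 and 1 with single libraries left out, and 0 under the other alternatives. The 1, found without d 0 replicate 4, was the Ensembl feature ENSBTAG00000043054, named here after its values were seen (log2 fold change -2.43, adjusted p = 0.0479 from limma, against -1.20 and 0.819 with all libraries). The smallest adjusted p otherwise lay between 0.0533 and 0.721. At the nominal limits, miRBase features that were higher numbered 3 with a filter of 8 libraries above the floor, 14 with libraries centred within each class and 2 to 8 with single libraries left out, and those that were lower 13 to 30. Ensembl features that were higher numbered 23 to 48 with single libraries left out, and those that were lower 20 with centring within each class and 5 to 22 with single libraries left out. The log2 fold change of bta-miR-2411 reversed to 0.029 with centring within each class and lay between -0.31 and 0.097 with single libraries left out, and that of bta-miR-505 between -0.090 and 0.37. It reversed without d 0 replicate 2 and, to -0.026, without d 124 replicate 4. The cause was not tested. With the replicate block (the steer as a term), 5 miRBase features were higher and 33 lower, 40 Ensembl features were higher and 13 lower, and the smallest adjusted p was 0.473. Of the features that met the nominal limits, 30 of 34 and 40 of 47 also met them with the block. With the block on the 8 libraries alone, the smallest adjusted p was 0.0533, that of bta-miR-1197. That fit, the centring within each class and a fit with repeated rows counted once were chosen after the data had been seen. Fold changes near the floor depend on the scale, and depth could not be assessed.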
